A study of Papaver somniferum with 12 samples.

Results

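Leaf transcripts were compared between the opium poppy (Papaver somniferum) cultivars G and Z, which the study bred in its own programme and described as differing in leaf benzylisoquinoline alkaloids. Of the 12 leaf libraries in the table, the comparison used 6, replicates 1 to 3 of G and replicates 1 to 3 of Z, and took its estimate of spread from these 6 alone. No plant was treated, and the groups differed by cultivar. The top leaf was taken at the filling stage from field-grown plants of both cultivars. In the study's description, G bears pink flowers with golden anthers and grey seed, and Z bears white flowers with purple spots on a branching stem. Both give a light red juice. The remaining 6 libraries, 3 of cultivar T and 3 of cultivar B2, entered no test here and are given as levels beside G and Z.

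The members are unigenes, the non-redundant transcripts that the study assembled from long reads of a further cultivar, B1. Their values are in RPKM, read numbers divided by transcript length and by all mapped reads of the library. A unigene was tested if it reached 1 RPKM in at least 3 of the 6 libraries, which 30126 of 61856 did. Of these, 22 were left aside because G replicate 3 held them at 1 RPKM or more, from 1.12 to 24.35 RPKM, while G replicates 1 and 2 were below 0.1 RPKM. This left 30104 unigenes. Identifiers follow the pattern PB.number.number, and none was paired with a gene name in the tables used here (0 of 61856 matched a reference list of 91581 poppy genes). Unigenes are therefore described by identifier, and the tissue label was not checked against leaf markers.

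As background, benzylisoquinoline alkaloids are built from tyrosine by way of reticuline. From there the pathway divides into a morphinan branch, which leads through thebaine and codeine to morphine, and a phthalideisoquinoline branch that leads to noscapine. Several genes of the noscapine branch lie side by side in a cluster in the genome of noscapine-producing poppies, and plants without the cluster make no noscapine. By the study's description G is a cultivar with noscapine in its leaves and Z is one without, and both contain morphine. Which unigenes encode these enzymes was not analysed here.

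The 6 libraries were close in the number of unigenes seen. Each held between 44916 and 45770 unigenes at a level of at least 0.1 RPKM, with 45542 ± 217 in G and 45042 ± 142 in Z (SD, n = 3 each). The 3 G libraries were all above the 3 Z libraries in this number, by 500.3 unigenes on average, in an exact two-sided permutation test with p = 0.1, the smallest that 3 against 3 can give. After median-ratio scaling the gap was 325.3 unigenes (exact permutation p = 0.2). On log2(RPKM + 1), Pearson's r between whole libraries was 0.9828 to 0.9887 within G, 0.9784 to 0.9844 within Z and 0.9672 to 0.974 between them. The median difference of all tested unigenes was 0.02 on the log2 scale. Relative depth could not be read from the low values, so the read depth of each value is unknown. The study lists more clean bases for every G library than for any Z library. Whether this bears on the number of unigenes seen was not tested. In T and B2, the libraries T replicate 2 and B2 replicate 3 stood apart from the others of their cultivar, as the values below show.

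Levels of 442 unigenes differed between G and Z, which was 1.47% of those tested. A unigene was called when the adjusted p of limma's two-sided moderated test was under 0.05 and the difference in log2(RPKM + 1) was at least 1 in size. Of the 442, 331 were higher in G (1.10% of those tested) and 111 were lower (0.369%). Among the higher ones the median difference was 1.54 and the largest 8.23, whereas among the lower ones the median was -1.29 and the most negative -3.14. Without the threshold on size, 1181 unigenes (3.92%) had an adjusted p under 0.05, with 707 higher and 474 lower. Near that threshold the numbers were dense, with 97 such unigenes between 0.9 and 1 and 50 between 1 and 1.1.

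**Figure D1:**
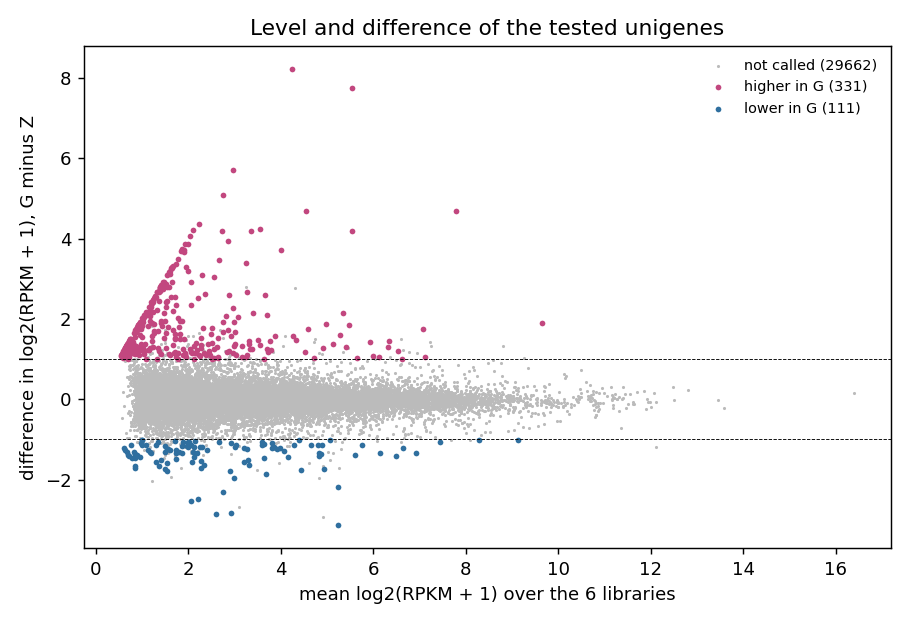
Difference in log2(RPKM + 1) between G and Z against the mean level over the 6 libraries, 1 point per tested unigene, with called unigenes in colour and dashed lines at 1 and -1. Of the called points, 331 lie above and 111 below, and the points beyond 4 are all above.

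The median mean level of the 331 higher unigenes was 4.96 RPKM in G and 0.313 RPKM in Z, and that of the 111 lower ones was 1.82 RPKM in G and 6.43 RPKM in Z. Over all tested unigenes the medians were 4.99 RPKM in G and 4.85 RPKM in Z. Together the 331 made up 0.756% to 0.849% of summed RPKM in the G libraries and 0.142% to 0.185% in the Z libraries. The 111 made up 0.140% to 0.150% in G and 0.343% to 0.375% in Z. Among the 100 most abundant unigenes of the 6 libraries limma called 0 higher and 0 lower, and 7 had an unadjusted p under 0.05. Over all 30104 tested unigenes 1.47% were called, so few calls would fall among any 100. An unadjusted limma p under 0.05 was found in 5425 of the 30104. The highest unigene of all, PB.225.272, averaged 91253 RPKM in G and 81615 RPKM in Z, a difference of 0.16 on the log2 scale that did not pass the test (limma adjusted p = 0.822).

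The excess of higher over lower was 220 unigenes, and 74.9% of the calls were higher in G. The share of higher calls was 68.9% where the difference was between 1 and 2 in size on the log2 scale (230 higher and 104 lower), 91.4% between 2 and 3 (64 and 6) and 97.4% at 3 or more (37 and 1). The share was also larger at low levels. Where the higher cultivar averaged under 5 RPKM, 166 were higher and 47 lower in G, and from 5 to 20 RPKM they were 121 and 34. From 20 to 100 RPKM the numbers came closer, at 31 and 22, and at 100 RPKM or more they were 13 and 8.

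Most of the excess lay in unigenes that were at 1 RPKM or more in G alone. The filter admits a unigene that reaches 1 RPKM in just the 3 libraries of 1 cultivar, and such a unigene had to differ to some degree. There were 380 tested unigenes at 1 RPKM or more in the 3 G libraries and in no Z library, of which 203 were called higher, and 196 in the 3 Z libraries and no G library, of which 29 were called lower. Among the 25804 unigenes at 1 RPKM or more in all 6 libraries, 103 were higher and 68 lower, an excess of 35. Fitted on their own these 25804 gave 165 calls (0.639%), with 100 higher (0.388%) and 65 lower (0.252%). Counts that use no estimate of spread also depend on these unigenes. Every G library was above every Z library with a mean difference of at least 1 in 371 unigenes (1.23%), and below with a mean difference of at most -1 in 157 (0.522%). Among unigenes at 1 RPKM or more in all 6 libraries these numbers were 121 and 93.

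**Figure D2:**
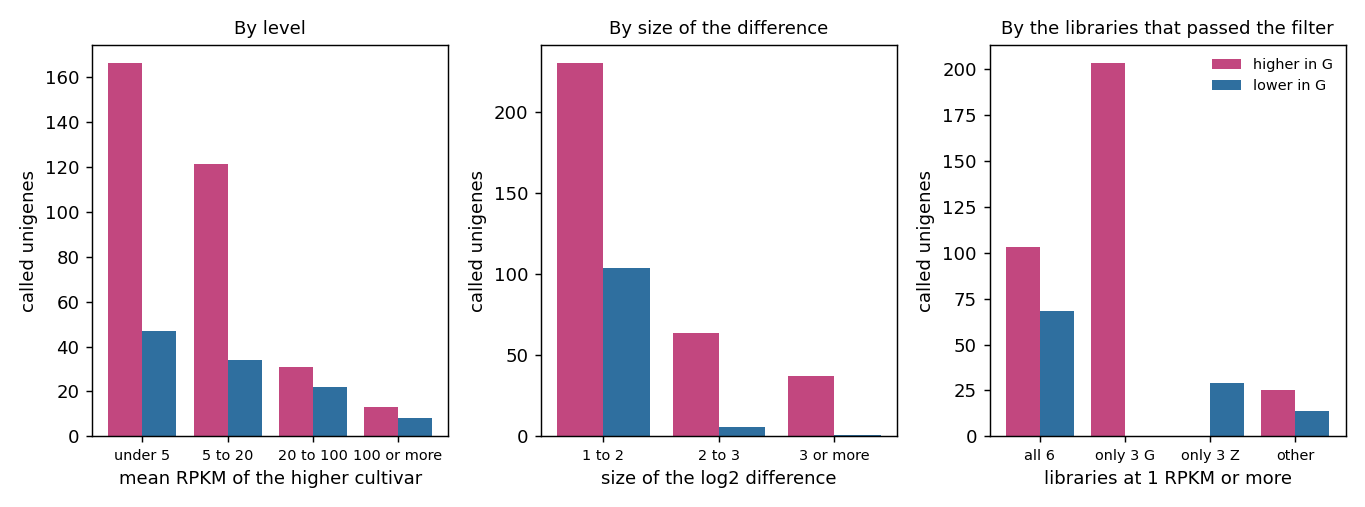
Number of called unigenes higher (left bar of each pair) and lower (right bar) in G, by mean RPKM of the higher cultivar, by size of the log2 difference, and by which libraries were at 1 RPKM or more. Unigenes at 1 RPKM or more in all 6 libraries gave bars of 103 and 68. By definition, no unigene at that level in the G libraries alone can be lower in G.

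Individual unigenes are described next. They were taken by size of difference among called unigenes averaging at least 10 RPKM in the higher cultivar, of which 89 were higher and 48 lower in G, and by abundance. Some, PB.19101.3 among them, reached 1 RPKM in no library of the other cultivar. Such unigenes passed the filter through 1 cultivar and had to differ, so their adjusted p adds little to the values. The largest difference was that of PB.19101.3. It stood at 206.99, 411.69 and 414.93 RPKM in G replicates 1, 2 and 3, and at 0.04, 0.15 and 0.11 RPKM in Z replicates 1, 2 and 3. All G libraries were above 200 RPKM while no Z library reached 1 RPKM, although G replicate 1 had a lower level than G replicates 2 and 3. The difference was 8.23 (SE 0.259, limma adjusted p = 1.25e-05). In T it was at most 0.33 RPKM, and in B2 it was 150.78, 130.65 and 44.55 RPKM.

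PB.57812.2 had an almost constant level in G, at 687.32, 657.95 and 699.99 RPKM. In Z it was at 6.97, 3.02 and 0 RPKM. The Z libraries differed more among themselves than the G libraries on the log2 scale, which is seen in the large SE of its difference of 7.75 (SE 0.665, limma adjusted p = 0.001). In T it was at 3.63, 734.35 and 7.62 RPKM, so T replicate 2 was at the level of G and T replicates 1 and 3 were at that of Z. B2 had 408.92 to 920.84 RPKM.

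The same arrangement of the T libraries was found in 5 more of the named higher unigenes. PB.57924.2 was at 33.97, 44.80 and 36.45 RPKM in G and at 0.48, 0 and 0.06 RPKM in Z, and the difference was 5.07 (SE 0.175, limma adjusted p = 2.03e-05). Its T values of 0.07, 39.27 and 0.17 RPKM matched G in replicate 2. PB.60473.1 was steady in G at 114.95, 119.27 and 117.25 RPKM and low but measurable in Z at 4.36, 1.54 and 6.24 RPKM, which made its mean 29.0 times higher in G. Its difference was 4.68 (SE 0.344, limma adjusted p = 0.000474), and T had 2.50, 121.38 and 3.71 RPKM. Both groups were far apart, and in each unigene the G-like T library was the same one.

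The other 3 of these were nearly off in Z. PB.1747.5 had 22.02, 18.55 and 20.27 RPKM in G and at most 0.05 RPKM in Z (difference 4.36, SE 0.0947, limma adjusted p = 3.37e-06), with 0.03, 17.79 and 0.02 RPKM in T. PB.53871.2 had 15.97, 16.27 and 15.46 RPKM in G, was listed at 0 in Z replicates 1 and 3 and had 0.04 RPKM in Z replicate 2, and had 17.15 RPKM in T replicate 2 and 0 in the other T libraries. PB.61652.1 had 15.72, 10.84 and 14.81 RPKM in G, was listed at 0 in all 3 Z libraries, and had 14.63 RPKM in T replicate 2 and 0 in the other T libraries. In B2, PB.1747.5 and PB.53871.2 were at the G level in all 3 libraries, at 16.55 to 19.98 RPKM, whereas PB.61652.1 was found in B2 replicate 3, at 14.81 RPKM, and listed at 0 in the other B2 libraries.

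A further 2 of the named higher unigenes were low or absent in T and in B2 replicates 1 and 2. PB.327.7 was at 51.06, 56.37 and 59.99 RPKM in G and at most 0.19 RPKM in Z, with a difference of 5.70 (SE 0.101, limma adjusted p = 3.22e-06). It was at most 2.17 RPKM in T, and at 0.19, 0.04 and 65.41 RPKM in B2. PB.60895.1 was at 16.69, 18.50 and 17.84 RPKM in G and at 43.70 RPKM in B2 replicate 3, with a value of 0 in the other 8 libraries. G was thus the cultivar with these transcripts in every library, and outside G only B2 replicate 3 was above 3 RPKM.

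PB.60183.1 was the most variable of the named higher unigenes within G, at 753.00, 1078.87 and 1760.97 RPKM. In Z it was at 52.65, 44.53 and 32.94 RPKM, so the groups stayed far apart, and its mean was 27.6 times higher in G (difference 4.69, SE 0.311, limma adjusted p = 0.000285). T was between them at 159.18 to 396.62 RPKM, and B2 was at most 38.02 RPKM. PB.60069.1 was at 64.43, 41.08 and 47.78 RPKM in G and at 1.04, 1.51 and 2.84 RPKM in Z (difference 4.25, SE 0.255, limma adjusted p = 0.000173). It was near the Z level in T, at 3.03 to 4.22 RPKM, and in B2 replicate 3, at 5.17 RPKM, but above 100 RPKM in B2 replicates 1 and 2.

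For PB.60971.1 it was Z that stood alone. Its values were 25.63, 30.79 and 25.78 RPKM in G against 0.13, 0.75 and 0.89 RPKM in Z (difference 4.19, SE 0.199, limma adjusted p = 5.39e-05), and T and B2 were at 12.87 to 39.97 RPKM. The most abundant called unigene, PB.24983.8, ranked 112 of all unigenes by mean level. It was at 1549.70, 1964.88 and 1233.65 RPKM in G and at 751.29, 318.89 and 307.19 RPKM in Z, 3.45 times higher in G on average. The groups did not overlap, Z replicate 1 was far above the other Z libraries, and the difference of 1.89 (SE 0.357) was close to the threshold of the test (limma adjusted p = 0.0348). It lost the call in 7 of 17 alternative settings, among them every fit without 1 library except that without Z replicate 1.

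**Figure D3:**
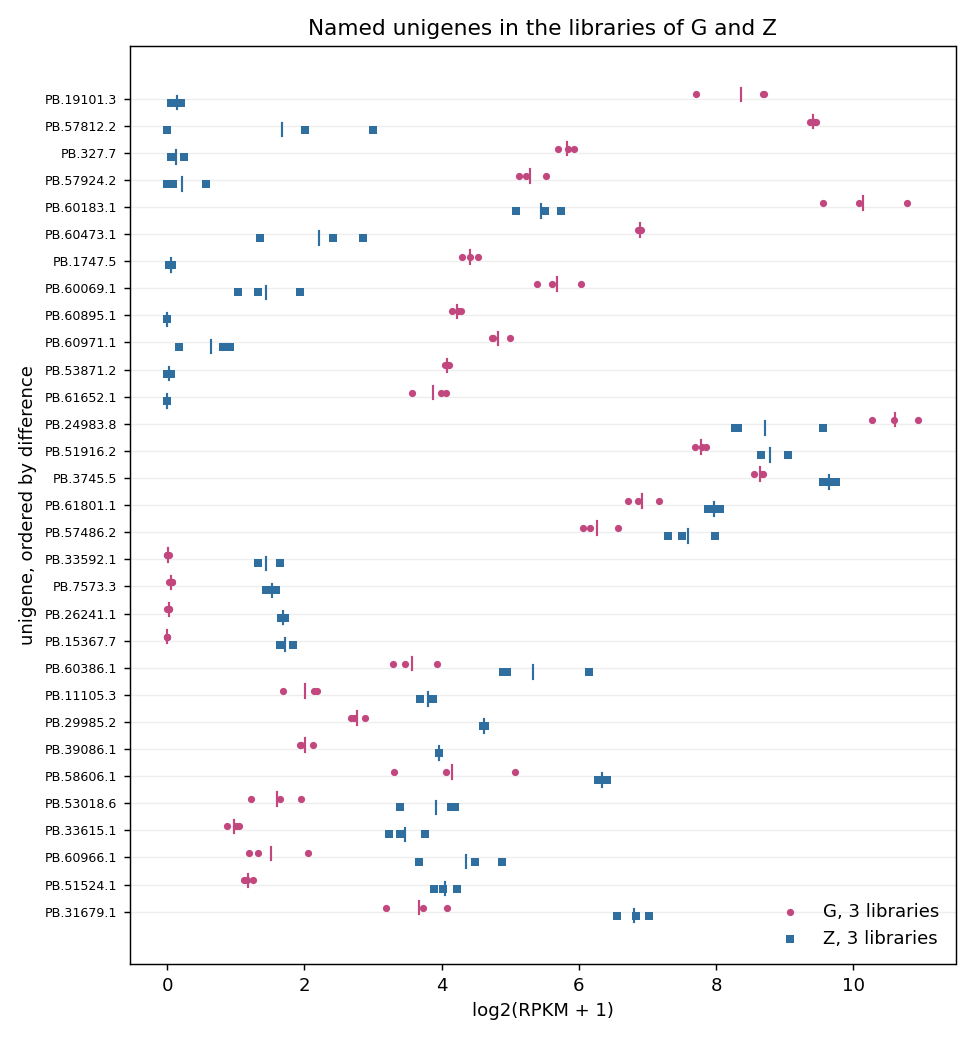
Levels of the 31 named unigenes in log2(RPKM + 1), with circles for the 3 G libraries, squares for the 3 Z libraries and a short line at each mean, ordered by difference. The 13 unigenes higher in G are at the top, from PB.19101.3 with a difference of 8.23 to PB.24983.8 with 1.89. The groups do not overlap in the named unigenes, which most rules for naming required. Groups also lie apart in unigenes that were not called, and the share over all tested unigenes was not computed. Non-overlap therefore does not mark out the named ones.

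Of the 111 unigenes lower in G, 68 were at 1 RPKM or more in all 6 libraries. PB.31679.1 had the most negative difference, -3.14 (SE 0.228, limma adjusted p = 0.000448). It was at 15.82, 12.26 and 8.10 RPKM in G and at 129.20, 112.51 and 92.72 RPKM in Z, 9.24 times lower in G on average. T was above Z, at 155.26 to 213.28 RPKM, and B2 was near G, at 7.39 to 11.55 RPKM, so the cultivars fell into a high and a low group with no overlap.

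PB.51524.1 was at 1.39, 1.24 and 1.18 RPKM in G and at 15.23, 13.85 and 17.60 RPKM in Z (difference -2.86, SE 0.108, limma adjusted p = 2.30e-05). PB.39086.1 was at 2.83, 3.36 and 2.86 RPKM in G and at 14.60, 14.57 and 14.49 RPKM in Z (difference -1.96, SE 0.0858, limma adjusted p = 3.87e-05). PB.29985.2 was at 5.59, 6.38 and 5.37 RPKM in G and at 23.88, 23.66 and 23.34 RPKM in Z (difference -1.86, SE 0.0833, limma adjusted p = 4.02e-05). Their SEs were the smallest among the 10 largest differences in this direction, and all 3 B2 libraries were low like G, at 1.62 to 7.05 RPKM. The T libraries divided as before, since T replicate 2 was low like G, at 1.82, 3.57 and 5.14 RPKM in the order above, and T replicates 1 and 3 were near Z, at 12.82 to 25.59 RPKM.

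PB.11105.3 also followed this pattern in T, at 16.82, 2.20 and 14.23 RPKM. It was at 2.22, 3.56 and 3.40 RPKM in G and at 11.89, 13.40 and 13.58 RPKM in Z (difference -1.80, SE 0.147, limma adjusted p = 0.000777). In B2 it was at 29.37 and 28.62 RPKM in replicates 1 and 2 and at 2.91 RPKM in replicate 3, so that both libraries that stood apart within their cultivar had the level of G. PB.33615.1 was at 1.00, 1.06 and 0.83 RPKM in G and at 12.50, 9.47 and 8.41 RPKM in Z, with a difference of -2.49 (SE 0.146, limma adjusted p = 0.000154), and no library of T or B2 was as low as G.

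Other lower unigenes varied more between replicates, as the SEs of the next 4 show. PB.60966.1 was at 3.13, 1.49 and 1.29 RPKM in G and at 21.44, 11.75 and 28.47 RPKM in Z (difference -2.83, SE 0.342, limma adjusted p = 0.00545). PB.53018.6 was at 2.12, 1.33 and 2.86 RPKM in G and at 17.33, 9.55 and 16.55 RPKM in Z (difference -2.31, SE 0.26, limma adjusted p = 0.00407). Z replicate 2 was the lowest Z library in both, and in both the groups stayed well apart.

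PB.58606.1 was even in Z, at 76.85, 84.07 and 79.05 RPKM, but ranged over 8.87, 32.62 and 15.76 RPKM in G. Its difference of -2.19 (SE 0.391, limma adjusted p = 0.0279) passed the test narrowly and was lost in 6 of 17 alternative settings. PB.60386.1 was at 10.06, 14.21 and 8.83 RPKM in G and at 69.75, 28.61 and 29.93 RPKM in Z, where replicate 1 was far above the others (difference -1.76, SE 0.344, limma adjusted p = 0.0389). It was lost in 7 of 17 settings. In both, leaving out any of 4 single libraries ended the call.

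The most abundant unigenes lower in G changed by little more than the threshold. PB.3745.5 was at 374.75, 411.77 and 404.49 RPKM in G and at 753.00, 856.98 and 793.70 RPKM in Z (difference -1.01, SE 0.0911, limma adjusted p = 0.00126). PB.51916.2 was at 230.52, 205.02 and 221.02 RPKM in G and at 529.12, 400.08 and 402.75 RPKM in Z (difference -1.01, SE 0.127, limma adjusted p = 0.00658). Both had non-overlapping groups with means 2.02 and 2.03 times lower in G, and both fell below the threshold of 1 in size after quantile normalization, at -0.99 and -0.98. PB.61801.1 was at 142.21, 115.02 and 104.29 RPKM in G and at 263.95, 235.00 and 251.52 RPKM in Z (difference -1.06, SE 0.123, limma adjusted p = 0.00462), but its levels elsewhere ran from 0.83 RPKM in T replicate 2 to 494.55 RPKM in B2 replicate 3. PB.57486.2 was at 65.38, 94.27 and 70.83 RPKM in G and at 251.15, 180.44 and 156.68 RPKM in Z (difference -1.33, SE 0.202, limma adjusted p = 0.0147). Leaving out single libraries ended each of these 4 calls. For PB.3745.5 these were G replicate 1 or Z replicate 2, for PB.51916.2 G replicate 2 or Z replicate 1, and for PB.61801.1 G replicate 3, each time because the difference fell below 1 in size, to between -0.97 and -0.87. For PB.57486.2 they were G replicate 1 (limma adjusted p = 0.0637) or G replicate 3 (0.0742).

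Transcripts present in 1 cultivar and near absent from the other were strongly uneven in number. At 1 RPKM or more in all 3 G libraries and below 0.1 RPKM in all 3 Z libraries were 107 unigenes (0.173% of the table), and 8 unigenes (0.0129%) had the reverse arrangement. Without Z replicate 1 the numbers were 122 and 21. Z replicate 1 alone of its cultivar was below 0.1 RPKM for 90 unigenes that the other Z libraries held at 1 RPKM or more. Such unigenes numbered 20 and 11 for Z replicates 2 and 3, and 21, 32 and 10 for G replicates 1, 2 and 3. All 107 and all 8 were called, which their selection nearly fixes. Of the 107, 58 were listed at 0 in all 3 Z libraries. Their mean level in G ran from 1.13 to 20.28 RPKM with a median of 2.81 RPKM, and 8 of them averaged 10 RPKM or more, led by PB.1747.5, PB.60895.1, PB.53871.2 and PB.61652.1, whose values are given above. No test was applied to the 107 against the 8.

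The 8 unigenes seen in Z and not in G were all low, with mean levels of 1.34 to 2.29 RPKM in Z. Their selection nearly fixed the calls, so the adjusted p given for them adds little to the values. PB.15367.7 had 2.56, 2.11 and 2.19 RPKM in Z and a value of 0 throughout G (difference -1.71, SE 0.0979, limma adjusted p = 0.000134). PB.26241.1 had 2.29, 2.23 and 2.15 RPKM in Z and no more than 0.02 RPKM in G (difference -1.67, SE 0.0883, limma adjusted p = 9.03e-05). Both were present in every library of T and B2, at 1.44 RPKM or more, so G stood alone. PB.7573.3 had 2.01, 1.72 and 1.92 RPKM in Z and no more than 0.05 RPKM in G, with 2.30, 0 and 2.72 RPKM in T. PB.33592.1 had 2.12, 1.51 and 1.51 RPKM in Z and no more than 0.02 RPKM in G, was listed at 0 in all of T, and had 3.84 to 4.37 RPKM in B2.

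Hardly any of the 107 was private to G. At least 1 library of T or B2 held 105 of them at 1 RPKM or more, and 1 was below 0.1 RPKM in all 6. All 3 B2 libraries held 65, and all 3 T libraries held 13, while 53 were below 0.1 RPKM in all of T. Presence in all of B2 together with absence from all of T was found in 32. Presence varied within cultivars too. T replicate 2 held 39 of the 107, against 15 and 18 in T replicates 1 and 3, and 22 were at 1 RPKM or more in T replicate 2 while below 0.1 RPKM in the other T libraries. No unigene of the 107 was so confined to T replicate 1 or to T replicate 3. B2 replicate 3 held 94, against 69 and 70 in B2 replicates 1 and 2, and 24 were seen in B2 replicate 3 alone of its cultivar. Of all unigenes, 515 were seen in B2 replicate 3 alone of B2, of which 177 were at 1 RPKM or more in all of G and 152 in all of Z. For T replicate 2 alone of T there were 85, with 45 in all of G and 22 in all of Z.

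The same was asked of all called unigenes, by whether each T or B2 library lay nearer the mean of G or that of Z in log2(RPKM + 1). Among the 331 higher in G, T replicates 1 and 3 lay nearer G in 20.8% and 21.8%, and T replicate 2 in 45.0%. Over all 30104 tested unigenes the 3 values were 51.2%, 51.7% and 51.7%. All 3 T libraries thus lay nearer Z in most of the 331, T replicate 2 less so than the others. T replicate 2 alone of its cultivar lay nearer G in 90 of the 331 (27.2%), against 2 for T replicate 1 alone and 4 for T replicate 3 alone. Over all tested unigenes those shares were 9.98%, 7.33% and 7.23%.

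Unigenes lower in G gave the same order. T replicate 2 lay nearer G in 65.8% of the 111, and T replicates 1 and 3 in 34.2% and 41.4%. B2 lay mostly with G among the 331, where its replicates 1, 2 and 3 lay nearer G in 63.1%, 63.4% and 84.9%, beside 53.7%, 55.4% and 58.1% of all tested unigenes. Among the 111 the shares were closer to those of all tested unigenes, at 55.9%, 55.9% and 62.2%. B2 replicate 3 alone of its cultivar lay nearer G in 80 of the 331 (24.2%), in 16.2% of the 111 and in 12.4% of all tested unigenes. Why T replicate 2 and B2 replicate 3 departed from the other libraries of their cultivar was not tested.

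**Figure D4:**
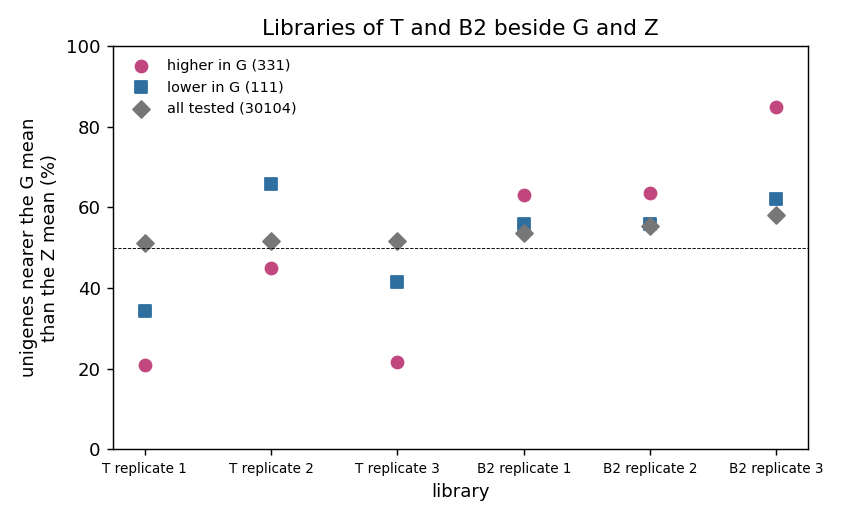
Percent of unigenes whose level in each T and B2 library lay nearer the G mean than the Z mean, for the 331 unigenes higher in G (circles), the 111 lower in G (squares) and all 30104 tested (diamonds), with a dashed line at 50. For the unigenes higher in G, T replicates 1 and 3 lie at 20.8% and 21.8%, T replicate 2 at 45.0% and B2 replicate 3 at 84.9%.

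The excess kept its direction when single libraries were left out and the tested unigenes stayed the same. Between 297 and 357 unigenes were then higher in G and between 82 and 127 lower. It did not always do so when the filter was applied again to the remaining 5 libraries. Once a G library is removed, a unigene at 1 RPKM or more in G alone has at most 2 such libraries. It is then no longer tested, while unigenes at that level in Z alone still are. Without G replicates 1, 2 and 3 in turn the numbers higher and lower were then 88 and 75, 100 and 114, and 73 and 68. Removing a Z library has the opposite effect on the filter. Without Z replicates 1, 2 and 3 in turn the numbers were 356 and 82, 328 and 90, and 322 and 57. With the spread of T and B2 added to the estimate, 169 were higher and 40 lower, and 17 of the 31 named unigenes were no longer called.

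**Figure D5:**
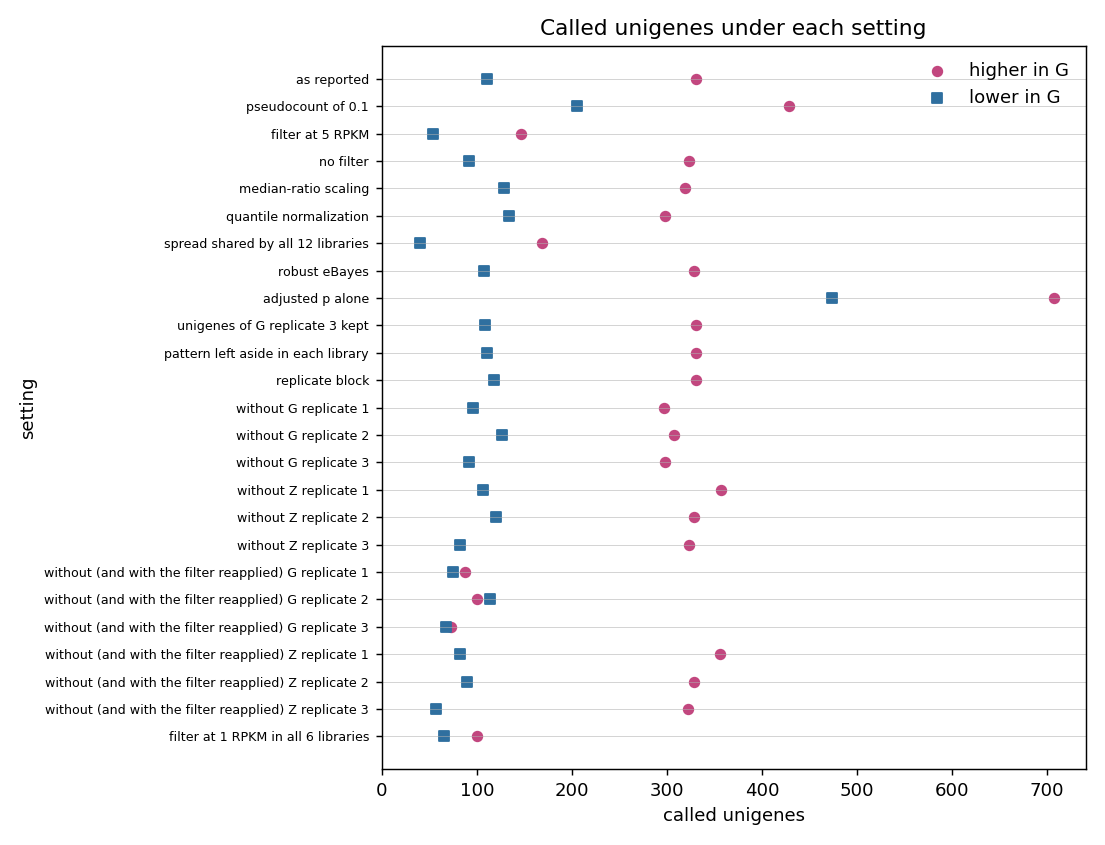
Number of unigenes called higher (circles) and lower (squares) in G under each setting. The circles lie to the right of the squares in every setting but the one that leaves out G replicate 2 and applies the filter again, with 100 and 114.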

How the data were processed

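Leaf RNA of cultivars G and Z was sequenced by the authors as paired-end Illumina libraries, 3 independent samples per cultivar. Per the labels and the study's methods, reads were filtered, mapped with HISAT2 (version 2.05) to B1 unigenes and quantified with RSEM. The deposited values are RPKM with 2 decimals, which do not allow the count test that the authors ran. The methods text names a fragment-based unit, and the data records name RPKM. A transcript whose sequence departs from B1 may map poorly, and RSEM shares reads among similar unigenes, so low values and those of near-identical unigenes are uncertain. The most frequent ratio of low values (0.1 to 0.5 RPKM) was 1 for each of the 15 library pairs, with no more than 5.57% of unigenes at it, so read depth was not recovered.

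Values were taken as log2(RPKM + 1), which understates differences at low levels, with no scaling between libraries. Limma 3.58.1 (lmFit, eBayes with trend) in R 4.3.3 was fitted with cultivar as the only factor, p-values were adjusted by Benjamini-Hochberg over all 30104 unigenes, and the procedure was tested on simulated data. The adjusted p of 0.05 is that of the study. A difference of 1 in log2(RPKM + 1) stands in for its 2-fold threshold and asks for more than 2-fold in RPKM, above all at low levels. Python 3.11.15, numpy 2.4.6, pandas 2.3.3 and matplotlib 3.10.9 served for counts and plots.

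Named unigenes were the 10 called ones with the largest difference in each direction (groups apart, 10 RPKM or more on average in the higher cultivar), the 4 most abundant called ones in each direction, and the 4 highest of those present in 1 cultivar and absent from the other. A planned sum over unigenes sharing the number between the points and the unigenes it would have named gave nothing to add, since each of the 61856 identifiers has its own. Samples, thresholds, rules and lists were chosen with earlier results of these data known. Alternatives were another pseudocount, filter, scaling, spread, threshold and rule for unigenes left aside, a replicate block, and fits without 1 library.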

Additional observations from a re-analysis of the deposited data

How the results depend on the processing

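The summary counts and the share of higher calls were computed under 157 alternative values. Of these, 115 gave the same reading (for a count, within 1.5 times; for the share, within its 95% exact binomial interval), 41 moved further and 1 reversed. The interval treats unigenes as independent, which they are not. It served only as a yardstick for these labels and does not measure the spread between plants. Of 523 values of the named unigenes 0 reversed and 43 lost the call. Their groups do not overlap, so another pseudocount, filter or spread, or a library left out, could not have reversed them.

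A pseudocount of 0.1 gave 205 unigenes lower in G, 67.6% of calls higher, and 593 higher and 340 lower unigenes with groups apart. A smaller pseudocount enlarges differences at low levels, so the counts with groups apart could only rise. Why the share of higher calls fell was not tested. A filter at 5 RPKM, which leaves 15220 unigenes to test, gave 200 calls with 146 higher and 54 lower, and 167 and 80 with groups apart. Quantile normalization gave 68.98% higher, and again the cause was not tested. The spread of all 12 libraries gave 209 calls, 169 higher and 40 lower (80.9% higher). Dropping the threshold on size gave 1181 calls, 707 higher and 474 lower (59.9% higher). Filtering at 1 RPKM in all 6 libraries, chosen after seeing the data, removes every unigene below 1 RPKM in any of them. It gave 165 calls, 100 higher and 65 lower (60.6% higher), with 121 and 93 apart.

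Without 1 library and with the tested unigenes kept, calls ran from 390 to 463, those higher from 297 to 357, those lower from 82 to 127 and the share higher from 70.7% (without G replicate 2) to 79.8% (without Z replicate 3). Unigenes present in G and absent from Z ran from 113 to 122, and those present in Z and absent from G from 9 to 21, the latter without Z replicate 1. With groups apart there were 391 to 432 higher and 177 to 225 lower. With the filter reapplied to the other 5, also chosen after seeing the data, calls ran from 141 to 438, 73 to 356 higher and 57 to 114 lower, and the share higher from 46.7% (without G replicate 2, the 1 reversal) to 84.96% (without Z replicate 3). Groups were then apart in 180 to 430 higher and 146 to 222 lower unigenes.

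Same-numbered G and Z libraries had correlations of 0.052, 0.213 and 0.136 in their deviations from the cultivar means. Pairs with different numbers ran from -0.232 to 0.135. Of these only G replicate 1 with Z replicate 3 (0.135) was positive. Whether same-numbered libraries share more than a number is not known. A replicate block gave 449 calls, 331 higher and 118 lower, with 73.7% higher. Among the named unigenes it ended the call of PB.60386.1 (limma adjusted p = 0.0546).

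The 3 libraries per cultivar, an unknown number of reads behind each value and the larger sequencing output listed for the G libraries limit these values. The study also lists a higher ribosomal RNA ratio, a measure of RNA integrity, for every G library than for any Z library. RNA integrity numbers were higher in G on average. Whether RNA integrity bears on the differences was not tested and cannot be told apart from cultivar. The p-values measure the spread between 3 samples of a cultivar grown in 1 plot.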
